A study of Mus musculus with 8 samples.

Results

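Jund, Nr4a1, Btg1 and Btg2, genes of the immediate early class, were followed through every m6A-eCLIP site that lies within their RefSeq gene spans. These held 32 of the 33774 sites in the deposited count table, with 15 in Jund, 2 in Nr4a1, 5 in Btg1 and 10 in Btg2. Of all sites, 31927 could be given 1 gene name, and these fell in 6531 genes. The 4 genes were selected on measured values of these same libraries, namely their differences between the knockdown and the control. Those differences are therefore given below as descriptions, with a standard error and no p-value, and nothing is read from a call made on them. The ratio of IP to Input within a genotype is not known to have entered that choice and was tested. It comes from the same libraries as those differences, so its independence of the choice is assumed and not shown.

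Immediate early genes are transcribed within minutes of a stimulus, from factors already present in the cell, and many give short-lived mRNAs. Jund encodes JunD, an AP-1 transcription factor that pairs with Fos proteins and, unlike Jun and JunB, is often made in resting cells. Nr4a1 encodes the orphan nuclear receptor Nur77, a classical target of cAMP and calcium signals in endocrine cells. Btg1 and Btg2 encode antiproliferative proteins of the BTG/TOB family, which bind the CCR4-NOT deadenylase and promote removal of poly(A) tails. m6A is a methyl mark on adenosine in mRNA, written by the METTL3-METTL14 complex, in which METTL14 holds the RNA. It is often found near stop codons and has been linked to mRNA decay.

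The cells were αTC1-6, a clonal mouse pancreatic alpha cell tumour line immortalized by SV40 large T antigen, so that all 8 libraries come from 1 line. Control cells received scramble siRNA (SCR) and knockdown cells received siRNA against METTL14 (M14KD). Each genotype gave 2 Input libraries and 2 IP libraries, numbered 1 and 2 for SCR and 3 and 4 for M14KD. In the IP libraries, RNA crosslinked by UV-C to an anti-m6A antibody was recovered, whereas the Input libraries hold RNA before that selection. Whether a group's libraries stem from separate cultures is not in the labels, and the spread that p-values measure may therefore be technical. With RNA from whole cultures, fewer cells of a type and less RNA per cell cannot be told apart.

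The Input libraries held 3438530 to 3637740 counts over all sites and the IP libraries 10207383 to 10918559. Mettl14 itself, from 2 sites, had 64 and 44 counts in SCR Input against 32 and 22 in M14KD Input, and 78 and 81 in SCR IP against 42 and 25 in M14KD IP. Its normalised counts in M14KD were thus 51.2% of SCR in Input and 43.4% in IP. Sites lay in 9 alpha cell markers, Gcg among them. No site lay in any of 9 markers of other islet cells, insulin genes included, or of 6 markers of non-endocrine cells. The summed level of these 9 alpha markers was higher in M14KD than in SCR, at 73810 to 74520 against 62880 to 66190 CPM (counts scaled to the library total) in Input and 27510 to 28100 against 23090 to 24370 in IP. Gcg and Ttr carried most of this sum, at 115% and 119% of SCR in M14KD Input, whereas Irx1, Irx2 and Pax6 stood at 92.3%, 92.8% and 88.8%. The part of these markers in the values below was not tested.

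All 4 genes lie on mouse assembly mm10. Jund (gene ID 16478) spans 2878 bases at chr8:70697739-70700616 on the plus strand. Nr4a1 (15370) spans 20894 bases at chr15:101253902-101274795 on the plus strand, with the start used here at 101266846. Btg1 (12226) spans 5813 bases at chr10:96617001-96622813 on the plus strand, and Btg2 (12227) spans 4291 bases at chr1:134074865-134079155 on the minus strand. No member site lay in the span of another gene. Exon and UTR placement was not analysed here.

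Because the cAMP response element (CRE) is the classical control element of Nr4a1 and other cAMP-induced early genes, the 250 bases before each start were searched, on both strands, for the full CRE (TGACGTCA), its short core (CGTCA, or TGACG on the other strand) and the CArG box bound by SRF. The sequences, from RefSeq on GRCm38.p6, are shown for the richest window and for the window with a full CRE; capitals mark the cores in Nr4a1 and the full CRE in Btg2.

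Nr4a1, chr15:101266596-101266845, plus strand: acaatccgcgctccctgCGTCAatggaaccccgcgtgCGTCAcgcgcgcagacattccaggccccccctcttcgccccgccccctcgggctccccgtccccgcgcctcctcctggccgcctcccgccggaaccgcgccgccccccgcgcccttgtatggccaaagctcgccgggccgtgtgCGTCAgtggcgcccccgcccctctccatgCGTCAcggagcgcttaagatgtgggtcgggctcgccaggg

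Btg2, chr1:134079156-134079405, minus strand: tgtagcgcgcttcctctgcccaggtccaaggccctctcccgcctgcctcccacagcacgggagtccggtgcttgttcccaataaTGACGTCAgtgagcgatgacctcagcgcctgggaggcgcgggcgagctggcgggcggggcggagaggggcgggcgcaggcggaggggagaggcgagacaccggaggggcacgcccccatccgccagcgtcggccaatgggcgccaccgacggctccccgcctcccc

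The Nr4a1 window held 4 cores, whose first bases lie 233, 213, 69 and 40 bases before the start, and no full CRE. Among 32851 windows of this length over all annotated starts, 17.8% held at least 1 core and 0.688% held 3 or more. The core contains the base pair step CG, of which the Nr4a1 window held 34 against a median of 6 over all windows. These shares are not matched for that content. The Btg2 window held 1 full CRE, 166 to 159 bases before the start, which itself contains both of that window's cores. A full CRE was present in 1.55% of all windows. The Btg1 window held 2 cores, at 187 and 103 bases before the start, and the Jund window held none. No CArG box, present in 1.47% of all windows, was found in the 4 windows. Near matches to that box were not counted. GC content was 74.4% for Nr4a1, 73.2% for Btg2, 65.2% for Btg1 and 47.6% for Jund, against a median of 52.4% over all windows. These matches describe the letters and show nothing of factor binding.

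Counts over the sites of each gene were summed to compare Input and antibody-recovered reads at those sites between the genotypes. Such sums cover only the sites and may count a read more than once, so they are not a measure of the whole transcript. In Jund, M14KD Input ran from 60.3% to 87.8% of SCR between single sites. Jund and Nr4a1 had lower counts in M14KD than in SCR, in Input as in IP. Btg1 and Btg2 had higher counts in M14KD, also in both kinds of library. In every one of these 8 comparisons the M14KD pair lay wholly on 1 side of the SCR pair. Because the genes were selected on these differences, nothing is read from that separation. The share of all genes with pairs separated in this way is not given here.

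Jund had 901 and 996 CPM in SCR Input and 691 and 733 in M14KD Input. The M14KD mean was 712.1 ± 30.1 (SD, n = 2) against 948.5 ± 67.1 in SCR (SD, n = 2), or 75.1% of it. In IP, Jund had 2180.3 and 2379.7 CPM in SCR and 1743 and 1888 in M14KD, so that M14KD reached 79.6% of SCR. The fitted log2 fold change of M14KD over SCR for this AP-1 factor was -0.41 (SE 0.08) in Input and -0.31 (SE 0.07) in IP. The lowest SCR library stood above the highest M14KD library in both kinds.

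Nr4a1 was covered thinly, with 25 and 39 raw counts in SCR Input and 23 and 14 in M14KD Input. These correspond to 6.91 and 10.7 CPM in SCR and 6.36 and 4.07 in M14KD, so that in Input the pairs were separated by a small margin. In IP, with 346 and 449 raw counts in SCR and 230 and 264 in M14KD, the pairs stood further apart, at 31.7 and 42.5 against 21.8 and 25.9 CPM. M14KD reached 59.2% of SCR in Input and 64.3% in IP. The log2 fold change for this nuclear receptor was -0.75 (SE 0.34) in Input and -0.61 (SE 0.16) in IP. Leaving out 1 library number at a time moved the Input value between -1.10 and -0.38, and the IP value between -0.82 and -0.40.

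Btg1 had 149 and 149.5 CPM in SCR Input and 162 and 187 in M14KD Input. In IP it had 249 and 283 CPM in SCR and 296 and 307 in M14KD. M14KD was 117% of SCR in Input and 113% in IP, and the log2 fold change was 0.22 (SE 0.10) and 0.20 (SE 0.08). For this deadenylase cofactor the 2 SCR Input libraries were nearly equal while the M14KD libraries differed more. Btg2, its paralogue, had 336 and 333 CPM in SCR Input and 358 and 361 in M14KD Input. In IP, Btg2 had 529.1 and 528.8 CPM in SCR and 601 and 605 in M14KD. M14KD was 108% of SCR in Input and 114% in IP, with log2 fold changes of 0.11 (SE 0.08) and 0.21 (SE 0.06). The Btg2 libraries of a group lay close together in IP, with means of 528.9 ± 0.246 in SCR and 602.8 ± 2.95 in M14KD (SD, n = 2).

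**Figure D1:**
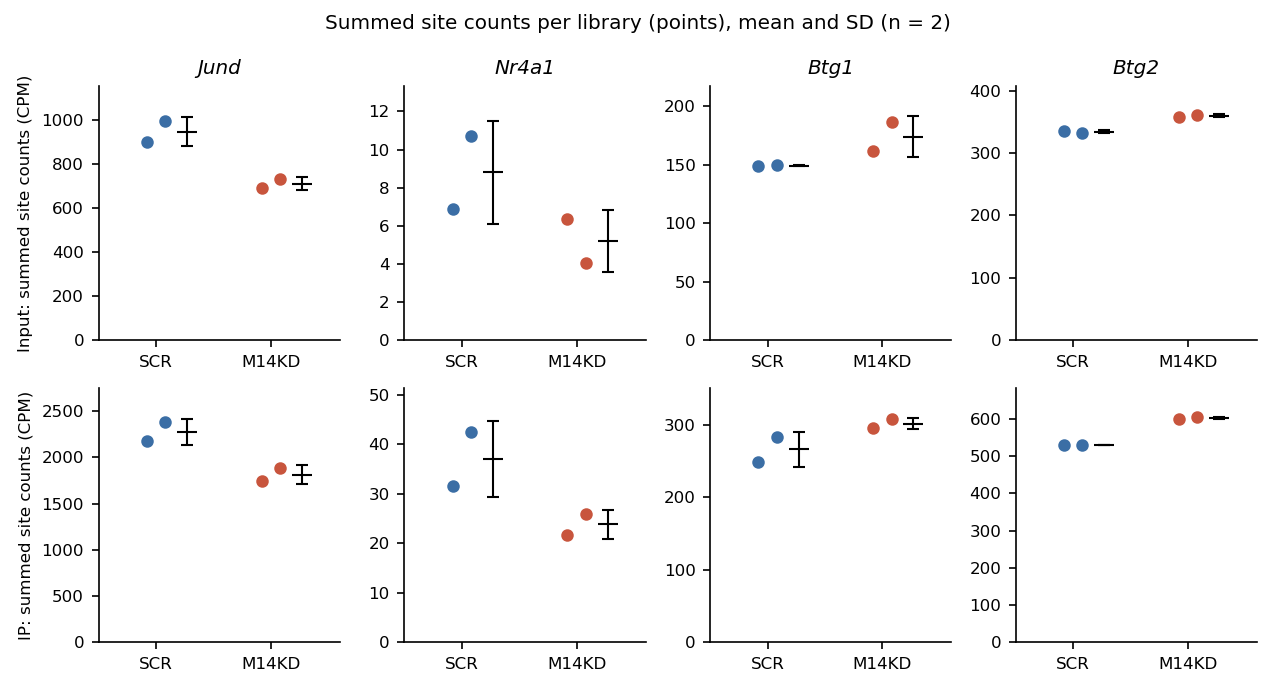
Summed site counts of Jund, Nr4a1, Btg1 and Btg2 in CPM (vertical axes, from 0, with a scale of their own in each panel) for Input (top) and IP (bottom); points are libraries, and the bar beside them is the mean with its SD (n = 2). The M14KD points lie below the SCR points for Jund and Nr4a1 and above them for Btg1 and Btg2 in all panels; the nearest points of the pairs are close for Nr4a1 in Input, at 6.91 against 6.36 CPM, and for Btg1 in IP, at 283 against 296.

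Over all genes, edgeR's quasi-likelihood test with Benjamini-Hochberg adjustment called 0% of 6381 genes in IP and 0% of 5826 genes in Input at an adjusted p of 0.05, so no member was called at the gene level. An unadjusted p under 0.05 was reached by 900 genes in IP and 594 in Input. DESeq2 called 46 and 22, with Jund among them in both and none of the other members; it gave Nr4a1 no adjusted p. Without number 1, edgeR called Jund in IP and Input and Nr4a1 in IP, and without number 4 it called both in IP. These fits without 1 number leave 1 library in a group, and more genes were called in them over the whole set as well. The median log2 fold change over all genes was 0.01 in IP and -0.0027 in Input.

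Whether RNA at these sites was recovered at another rate relative to Input after the knockdown was read from the ratio of IP to Input. The scale was set on the bulk of genes, which put the median difference over all genes at 0.0018 log2 units. A change shared by most genes would therefore not show in this ratio. For Jund this ratio was 0.09 (SE 0.11) log2 units higher in M14KD than in SCR, with a 95% interval of -0.15 to 0.33. The difference was 0.09 (SE 0.10) for Btg2, with an interval of -0.13 to 0.30, and -0.03 (SE 0.13) for Btg1, with an interval of -0.32 to 0.25. For Nr4a1 it was 0.12 (SE 0.40), and its interval of -0.73 to 0.97 leaves room for a large difference in either direction. For Nr4a1 it was 0.62 without number 3 and -0.30 without number 4. These values come from a fit that does not pair the libraries. With the library number as a block, which pairs IP with Input, the difference was 0.09 (SE 0.06) for Jund and 0.11 (SE 0.33) for Nr4a1. For Btg1 it was then -0.03 (SE 0.09) and for Btg2 0.09 (SE 0.07). Over all genes edgeR called 0% of 6379 in this comparison, with 168 at an unadjusted p under 0.05 and none called by DESeq2.

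Within a genotype, IP over Input summed over sites took different values in the 4 genes, which were not tested against each other. Nr4a1 stood highest, with IP over Input of 1.38 log2 units (SE 0.24), or 2.6-fold, in SCR (edgeR adjusted p = 9e-05) and 1.49 (SE 0.29) in M14KD (edgeR adjusted p = 0.000227). It exceeded 94.5% of all genes in SCR and 95.9% in M14KD. Jund followed, with 0.57 (SE 0.08), or 1.49-fold, in SCR (edgeR adjusted p = 9.16e-06) and 0.66 (SE 0.08) in M14KD (edgeR adjusted p = 1.91e-06), above 72.3% and 75% of genes. Btg1, at 0.14 (SE 0.10) in SCR and 0.11 (SE 0.09) in M14KD, was not called (edgeR adjusted p = 0.197 and 0.317). Btg2, at -0.03 (SE 0.07) in SCR and 0.06 (SE 0.07) in M14KD, was not called either (edgeR adjusted p = 0.722 and 0.48). These BTG transcripts sat near the middle of all genes, between the 47.2 and 53.8 percentiles.

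Calls of this kind were common. In SCR 35.2% of genes were called higher in IP and 34.7% lower, and in M14KD 35.5% higher and 35.6% lower, so 2 of 4 members called higher is little more than the background share. These values are relative to a scale set on the bulk of genes. Scaling to column totals moved the median gene up by 0.72 in SCR and 0.71 in M14KD, and scaling to the least enriched 25% of genes by 1.34 and 1.35. Both put all 4 members above 0. With 1 site per 100 bases in each sum, the Jund call was lost (-0.09 in SCR, edgeR adjusted p = 0.322, and -0.052 in M14KD, edgeR adjusted p = 0.596). Under that spacing Btg1 was called lower, at -0.70 in SCR (edgeR adjusted p = 6.59e-05) and -0.77 in M14KD (edgeR adjusted p = 1.79e-05), and Nr4a1 was called higher, at 1.63 and 1.69. Btg2 was called higher in M14KD, at 0.18 (edgeR adjusted p = 0.0411). Gene sums therefore rest on which sites enter them, and the sites are described next.

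Site by site, IP over Input is given as log2 units above or below the median site of the same genotype, and sites under 100 bases from a neighbour form a stretch. Neighbouring sites may count the same reads, so sites of a stretch are not independent. Of the 4 genes, Jund had the widest range of values. A group of 4 sites at chr8:70700136-70700186, 2397 to 2447 bases after the start and 480 to 430 bases before the annotated 3′ end, stood 1.504 to 2.08 above the median site. The highest, at 70700141, had 3882 and 4038 IP counts and 185 and 186 Input counts in SCR, and 2835 and 2898 IP counts and 130 and 132 Input counts in M14KD. Its 2.08 (SE 0.10), or 4.22-fold, exceeded 98% of all sites (edgeR adjusted p = 1.28e-18), and in M14KD the value was 2.13 (SE 0.11). This site also had the highest summed IP count of the gene.

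The other Jund sites were lower. At 70700266, 80 bases further and the last site of the gene, the value was -1.47 (SE 0.12). A stretch of 3 sites at 70699959 to 70699972 lay at -1.71 to -0.86, and 6 sites at 70699771 to 70699849 lay between -0.69 and 0.66. The first site, 70699670, had 157 and 174 IP counts and 145 and 143 Input counts in SCR, and 111 and 117 IP counts and 109 and 108 Input counts in M14KD. Its -2.14 (SE 0.14) was the lowest of the gene and above only 3.87% of all sites (edgeR adjusted p = 1.18e-14). In Jund the highest and lowest sites, 471 bases apart, thus differed 18.6-fold in IP over Input in SCR and 20.8-fold in M14KD.

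Both Nr4a1 sites were enriched. The site at 101270589 had 180 and 238 IP counts and 13 and 18 Input counts in SCR, and 122 and 129 IP counts and 11 and 7 Input counts in M14KD. The site at 101270610, 21 bases further, had 166 and 211 IP counts and 12 and 21 Input counts in SCR, and 108 and 135 IP counts and 12 and 7 Input counts in M14KD. They stood 1.41 (SE 0.26) and 1.18 (SE 0.27) above the median site in SCR and 1.48 (SE 0.33) and 1.36 (SE 0.34) in M14KD. In SCR they exceeded 91.2% and 86.2% of sites (edgeR adjusted p = 1.06e-05 and 0.000203). The sites differed by less than either standard error, and their counts were near-equal in every library.

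The 5 Btg1 sites lay within 1280 to 1490 bases after the start. The lowest, at 96618281, had 207 and 204 IP counts and 111 and 120 Input counts in SCR, and 184 and 242 IP counts and 124 and 132 Input counts in M14KD. The highest, 73 bases further at 96618354, had 951 and 1030 IP counts and 137 and 136 Input counts in SCR, and 1148 and 1072 IP counts and 147 and 175 Input counts in M14KD. Their values of -1.51 (SE 0.15) and 0.52 (SE 0.12) in SCR differed 4.08-fold. Between them, 96618350 stood at 0.42 (SE 0.12), and 96618472 and 96618491, at -0.15 (SE 0.17) and 0.02 (SE 0.14), were not called.

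Btg2 sites ran from its start to 2062 bases after it. The 2 sites nearest the start were depleted in IP. The site at 134079106, 49 bases after the start, had 352 and 341 IP counts and 137 and 145 Input counts in SCR, with a value of -1.04 (SE 0.13). The site at 134079018 had 111 and 119 IP counts and 136 and 148 Input counts in SCR, and 141 and 128 IP counts and 145 and 130 Input counts in M14KD. Its -2.64 (SE 0.15) was above only 1.33% of all sites (edgeR adjusted p = 1.66e-16), the lowest of all member sites. The highest Btg2 value, 0.78 (SE 0.11), lay 1628 bases away at 134077390, which had 1294 and 1253 IP counts and 160 and 133 Input counts in SCR, and 1458 and 1290 IP counts and 160 and 151 Input counts in M14KD. Highest and lowest differed 10.7-fold in SCR and 9.02-fold in M14KD, while the summed gene stood near 0. This antiproliferative gene's middle position at the gene level thus averaged sites above and below the median site.

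**Figure D2:**
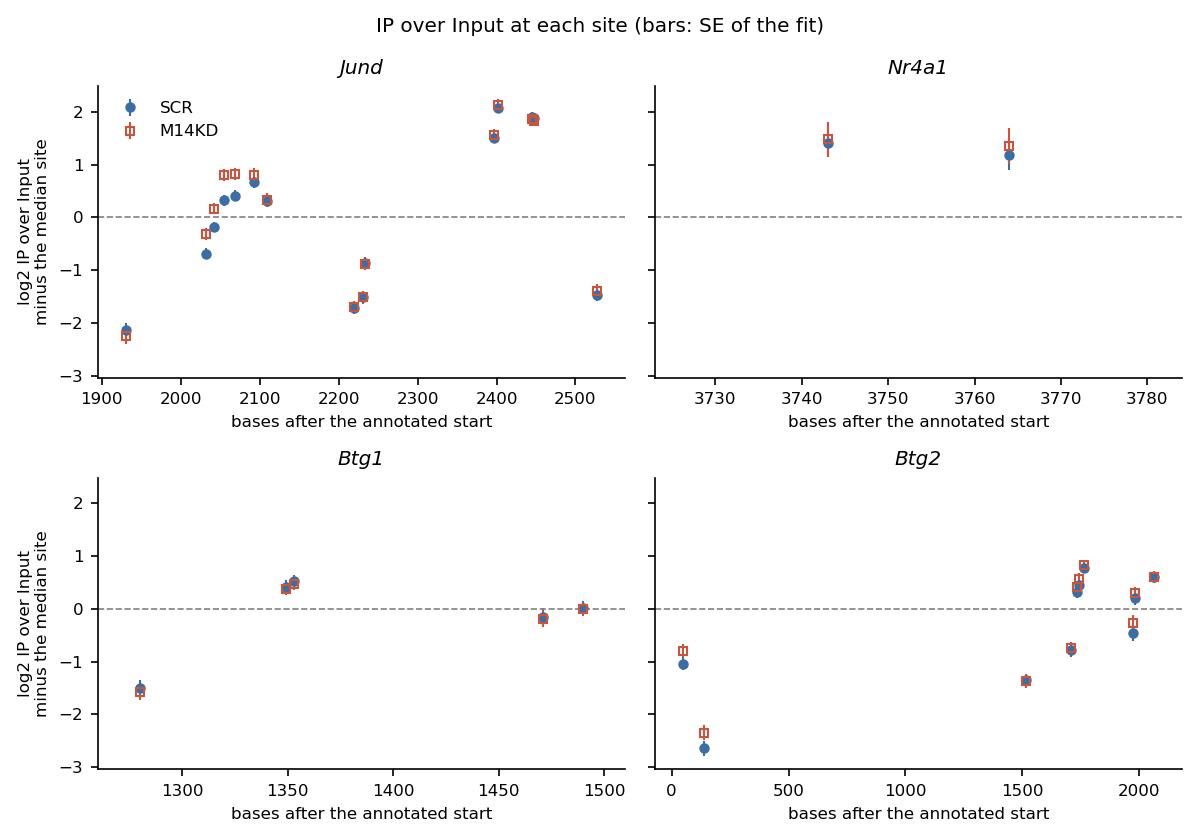
IP over Input at each member site, as log2 units minus the median site (vertical axis), against bases after the annotated start (horizontal axis, a range of its own in each panel); filled circles are SCR, open squares M14KD, bars the SE of the fit. In Jund 4 sites at 2397 to 2447 bases stand 1.504 to 2.08 above the median in SCR. The nearest sites on either side stand at -0.86 and -1.47. SCR and M14KD points nearly coincide at most sites.

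In SCR, 16 of the 32 member sites were called higher in IP and 12 lower, and in M14KD 17 higher and 11 lower. Over all sites edgeR called 34% higher and 33.4% lower in SCR, and 33.8% and 33.1% in M14KD. By gene the SCR calls, higher and lower, were 8 and 6 of 15 in Jund, 2 and 0 of 2 in Nr4a1, 2 and 1 of 5 in Btg1, and 4 and 5 of 10 in Btg2. Relative to the median site of each genotype, the pattern over sites was nearly the same in SCR and M14KD. Of the 32 sites, 26 differed by at most 0.2 log2 units between SCR and M14KD, and Pearson's r between the genotypes was 0.992 (Spearman's rho 0.983, n = 32 sites that share libraries and, within a stretch, reads). The largest difference was 0.48 higher in M14KD and the most negative -0.11.

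At single sites the fitted differences between genotypes had the same sign in IP and Input at all 32 member sites. The share of all sites with equal signs is not given here. At Btg2 site 134079018 the fitted Input difference was 0.01 (SE 0.14), with M14KD at 99.5% of SCR in CPM, so its sign is uncertain. In IP, M14KD lay below SCR at all 15 Jund sites and both Nr4a1 sites with no overlap of libraries, and above it at 10 of 10 Btg2 sites and 2 of 5 Btg1 sites. Over all 33774 sites, 25% had both M14KD IP libraries below both SCR libraries and 18.7% had both above. In Input, the M14KD libraries lay below at 12 of 15 Jund sites and 1 of 2 Nr4a1 sites, and above at 5 of 5 Btg1 sites and 4 of 10 Btg2 sites, where 19.8% and 18.3% of all sites did so. Since the genes were selected on these differences, the shares are given only beside the background. In log2 units the IP differences ranged from -0.46 to -0.17 in Jund, were -0.66 and -0.56 in Nr4a1, and ranged from 0.11 to 0.25 in Btg1 and from 0.16 to 0.33 in Btg2.

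Of the member sites, edgeR called 3 lower in IP, 2 in Jund at 70700136 and 70700141 and 1 in Nr4a1 at 101270589, against 0.375% of all 33348 sites called lower and 0.255% called higher. It called 4 lower in Input, all in Jund, against 0.0232% of 30147 sites called lower and 0.0697% called higher. No site of Btg1 or Btg2 was called in either. These calls are on values that chose the genes, so they stand beside the background as a record only. They moved with single libraries. In IP, leaving out any 1 number changed the count of member sites called, and the calls over all sites moved too. In Input the member count changed without number 2, 3 or 4 and did not change without number 1. Such fits leave 1 library in a group.

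In Jund the difference in Input varied along the gene more than that in IP. The 4 called Input sites, 70699771 to 70699808, stood at -0.66, -0.66, -0.71 and -0.64 in Input (SE 0.12 each), and at -0.30, -0.31, -0.23 and -0.23 in IP (SE 0.08 to 0.09). At 70699794 the Input counts were 265 and 289 in SCR against 169 and 156 in M14KD, and the IP counts 1656 and 1839 against 1388 and 1441. The difference of the ratio there was 0.47 (SE 0.15), the largest of the member sites and named for that reason. It is a difference between values that chose the genes, so it is a description only. At the 4 enriched sites further on, Input and IP differences were close, at -0.45 to -0.28 and -0.40 to -0.33. Over all 33356 sites edgeR called 0% for a difference of the ratio, although 1242 had an unadjusted p under 0.05, and DESeq2 called none.

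**Figure D3:**
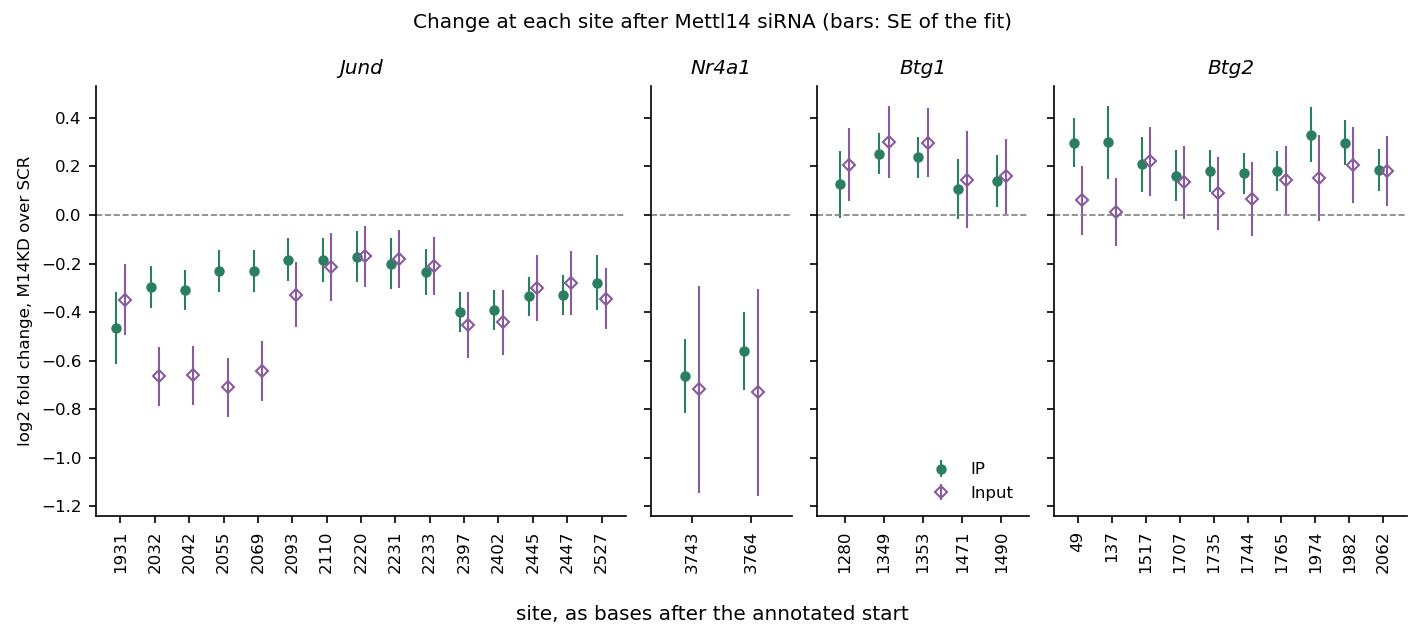
Log2 fold change of M14KD over SCR (vertical axis) at each member site, in order along the gene and labelled with bases after the annotated start; filled circles are IP, open diamonds Input, bars the SE of the fit. Jund and Nr4a1 values lie below 0 and Btg1 and Btg2 values above it; at Jund bases 2032 to 2069 the Input values, -0.71 to -0.64, lie below the IP values, -0.31 to -0.23.

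The members were set beside genes of the same roles. No gene of any list below was called in IP, in Input or for the difference of the ratio. Of 17 AP-1 partners and relatives of Jund, 7 had sites, and 5 of these lay below 0 in IP and 6 in Input, with medians of -0.11 and -0.15. Jun, the founding AP-1 subunit, stood at -0.11 (SE 0.10) in IP and -0.15 (SE 0.15) in Input. Jdp2, a repressor that pairs with Jun proteins, stood at -0.28 (SE 0.08) and -0.40 (SE 0.13), close to Jund itself, and Fosl2 at -0.23 (SE 0.09) and -0.16 (SE 0.15). Junb, at 0.08 (SE 0.11) and -0.08 (SE 0.18), and Men1, whose product menin binds JunD, at 0.03 (SE 0.08) and -0.13 (SE 0.12), lay nearer 0. IP over Input in SCR was called higher for 4 of the 7, where 35.2% of all genes were, with Jun at 1.38 (SE 0.12; edgeR adjusted p = 7.36e-08) far above Jund.

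The nuclear receptor partners of Nur77 with sites, Rxra and Rxrb, stood at -0.27 (SE 0.09) and -0.21 (SE 0.10) in IP and at -0.20 (SE 0.12) and -0.08 (SE 0.10) in Input. Of the BTG/TOB family, Tob1 and Tob2 had sites. Tob1 stood at 0.06 (SE 0.07) in IP and -0.09 (SE 0.09) in Input, and Tob2 at -0.07 (SE 0.11) and 0.20 (SE 0.14), so neither matched the higher values of Btg1 and Btg2 in both kinds of library. Tob1 was enriched in IP, at 0.69 (SE 0.08) in SCR (edgeR adjusted p = 8.65e-07). Of 15 genes for the CCR4-NOT deadenylase and related BTG partners, 10 had sites and 9 were tested, with medians of -0.08 in IP and -0.08 in Input. None of the 9 was called higher in IP over Input in SCR and 4 were called lower, near the 34.7% of all genes called lower, among them Pabpc1, the cytoplasmic poly(A)-binding protein, at -1.78 (SE 0.10) from 1 site.

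Of 60 other immediate early genes 38 had sites. Of the 37 tested in IP, 16 lay above 0 and 21 below, with a median of -0.03, and of 35 tested in Input 16 lay above and 19 below, with a median of -0.03. The class thus lay on both sides of 0. Those with the highest counts included the HLH inhibitor genes Id2, at 0.24 (SE 0.06) in IP and 0.29 (SE 0.07) in Input, Id3, at 0.24 (SE 0.07) and 0.22 (SE 0.07), and Id1, at 0.21 (SE 0.07) and 0.16 (SE 0.08). The kinase genes Sgk1, at 0.11 (SE 0.06) and 0.07 (SE 0.07), and Sik1, a cAMP-induced inhibitor of CREB coactivators, at -0.16 (SE 0.07) and -0.28 (SE 0.09), completed the 5. Atf3, a stress-induced gene of the ATF family and the lowest of the class in both, was picked after its values were seen. It had 329 and 392 IP counts in SCR against 202 and 212 in M14KD, and 40 and 48 Input counts against 27 and 23, giving -0.73 (SE 0.13) and -0.77 (SE 0.26).

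In SCR, 23 of 37 other immediate early genes were called higher in IP over Input and 7 lower, where 35.2% and 34.7% of all genes were. Their median was 0.45 against 0.04 over all genes, and in M14KD 21 were called higher and 7 lower. Whether the class differs from other genes was not tested. The range ran from -1.99 for Srf, which rests on 1 site, to 2.10 for Homer1. Jund lay inside this range near the median and Nr4a1 in its upper part, with Btg1 and Btg2 below the median. The CREB, SRF and MAP kinase genes upstream of the class, 18 of 22 with sites, had 4 above 0 and 14 below in IP, with a median of -0.18, and 5 above and 11 below of 16 tested in Input, with a median of -0.09.

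**Figure D4:**
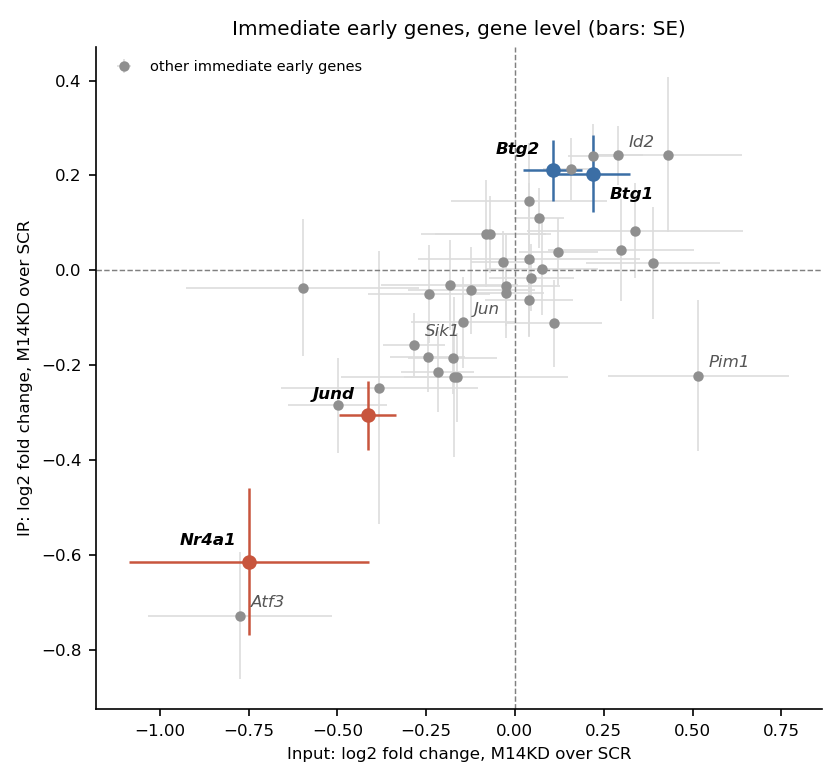
Log2 fold change of M14KD over SCR in IP (vertical axis) against Input (horizontal axis) for the 4 members (coloured) and the other immediate early genes tested in both (grey); bars are the SE of the fit. Jund and Nr4a1 lie at the lower left and Btg1 and Btg2 at the upper right; the other genes lie on both sides of 0, Atf3 lowest in IP at -0.73.

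Over the 8 libraries, the levels of Jund and Nr4a1 moved together, with Pearson's r of 0.96 between their log2 CPM, and those of Btg1 and Btg2 less closely, with 0.77. Between the pairs r lay from -0.30 to 0.11. Of 4171 genes with a mean Input count of at least 50, those most like Jund were Hip1 (0.993), Jdp2 (0.993) and Slc6a17 (0.990). For Nr4a1, out of 4172, they were Apc2 (0.996), Ndst1 (0.985) and Zfp36l2 (0.9835). Btg1 was most like Pnrc1 (0.912), Sumf1 (0.912) and Fam32a (0.901), and Btg2 like Asah1 (0.957), Pop7 (0.92) and Mrpl41 (0.909). The libraries fall into IP and Input sets, so r counts that gap as well as the genotypes and describes these 8 libraries only.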

How the data were processed

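m6A-eCLIP counts at 33774 sites were analysed in 8 libraries (2 per group) of αTC1-6 cells. STAR alignment to mm10, with cutadapt and UMI-tools, is named in the submitters' processing notes; counting window, site caller and filters: not given in the sources used here. Values are raw counts per site, deposited by the authors, and 33724 sites are single bases; positions are printed 1-based. Every sample column was used (0 unused columns).

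Sites were named from RefSeq spans on GRCm38.p6, the assembly of mm10. Counts were summed per gene, so a read near several sites may be counted more than once. edgeR 4.0.16 (R 4.3.3, limma 3.58.1) fitted all genes and all sites by quasi-likelihood, with filterByExpr, TMM scaling and Benjamini-Hochberg adjustment at 0.05. M14KD over SCR was fitted within IP and within Input; IP over Input and its difference between genotypes came from 1 model of 8 libraries. DESeq2 1.42.0, other scalings, filters and site spacing, and leaving out each library number were alternatives. The fitting scripts were tested on simulated data.

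The members and gene lists were chosen with earlier results of these data known. Named were all sites of genes with 6 or fewer, otherwise the site with the highest IP count and those with the highest and lowest IP over Input; called sites as counts; the 5 list genes with the highest counts; and the 3 genes most correlated with each member (log2 CPM, prior count 2).

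IP and Input libraries of 1 number share that number in the labels. Their deviations from the group means correlated (r = 0.455 in SCR, 0.306 in M14KD, over 4172 genes), so the numbers pair them. With the replicate number as a block no call of a member gene changed.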

Additional observations from a re-analysis of the deposited data

How the results depend on the processing

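Gene-level differences of M14KD over SCR kept their direction for all 4 genes in IP and Input under every alternative run. The Btg2 value in IP was 0.19 with column totals, 0.20 with TMM on the least enriched 25% of genes, 0.20 without a filter and 0.18 with 1 site per 100 bases; in Input it was 0.093 with that 25%, 0.12 in a model of 8 libraries, 0.13 with 1 site per 100 bases and 0.12 with sites of a single gene. Leaving out 1 library number gave 0.19 to 0.22 (IP) and 0.11 to 0.12 (Input) for Btg2, -0.38 to -0.24 and -0.49 to -0.33 for Jund, -0.82 to -0.40 and -1.10 to -0.38 for Nr4a1, and 0.11 to 0.29 and 0.12 to 0.33 for Btg1. IP over Input depended on scaling and spacing. In SCR, Btg1 was 0.86 with column totals and 1.49 with the least enriched 25%, and Btg2 0.69 and 1.32; in M14KD, Btg1 was 0.82 and 1.46 and Btg2 0.77 and 1.41. With 1 site per 100 bases, SCR values were -0.094 (Jund), -0.70 (Btg1) and 0.13 (Btg2), and M14KD values -0.052, -0.77 and 0.18. Leaving out 1 number gave, in SCR and M14KD, 0.55 to 0.60 and 0.62 to 0.69 (Jund), 1.28 to 1.52 and 1.06 to 1.99 (Nr4a1), 0.07 to 0.22 and 0.05 to 0.16 (Btg1), and -0.04 to -0.02 and 0.03 to 0.07 (Btg2). The difference of the ratio for Btg2 was 0.10 with DESeq2 or its size factors, 0.10 with the 25%, 0.11 with a mean count of at least 20 and 0.051 with 1 site per 100 bases; leaving out 1 number gave 0.074 to 0.10 (Btg2), 0.06 to 0.12 (Jund), -0.10 to 0.05 (Btg1) and -0.30 to 0.62 (Nr4a1).

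With the replicate block, IP over Input was 0.57 (Jund), 1.38 (Nr4a1), 0.14 (Btg1) and -0.03 (Btg2) in SCR, and the edgeR adjusted p for Btg1 was 0.0641; no call of a member gene changed. Member sites called lower in IP numbered 5 with column totals and 5 in a model of 8 libraries, and 0 to 11 without 1 number; in Input 0 without a filter and 0 to 4 without 1 number. Of IP over Input calls, scaling on the least enriched 25% left 25 higher and 2 lower in SCR and 2 lower in M14KD, and column totals 7 lower in M14KD; without 1 number 15 to 16 were higher and 11 to 12 lower in SCR, and 14 to 17 and 10 to 11 in M14KD. Over all genes, IP calls ran from 0 to 46 over the alternatives with all libraries and from 11 to 182 without 1 number (182 without number 1, 169 without number 4, 19 without number 2), and Input calls from 0 to 22 and from 0 to 34 (34 without number 1). Among them were Jund with DESeq2 in IP and Input, Jund and Nr4a1 in IP without number 1 or number 4, and Jund in Input without number 1. Over all sites, IP calls were 210, 120 with DESeq2 and 0 to 1422 without 1 number, and Input calls 28, 57 with the least enriched 25%, 49 with a mean count of at least 20, 0 without a filter and 0 to 40 without 1 number. The cause was not tested. Nr4a1 in Input rests on 14 to 39 counts a library, which limits its values in Input and IP over Input.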
